A study of Homo sapiens with 12 samples.

Results

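Integrins are the receptors by which cells hold on to the extracellular matrix, and laminins are the matrix proteins of the basement membrane that many of these receptors bind. The genes of both families were followed here through cells that had received AIPL1 or GFP vectors. Of the 62757 genes of the count table, 38 carried the name of an integrin alpha subunit (ITGA followed by 1 or more letters or digits, 18 genes), an integrin beta subunit (ITGB1 to ITGB8, 8 genes) or a laminin chain (LAMA, LAMB or LAMC with a number, 12 genes). Within these families every gene that matched by name was taken, whatever its level or change. The expression filter left 24 of them for testing among 13896 genes.

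The cells were ARPE-19, a line derived from human retinal pigment epithelium, and all 4 groups had been kept in 3 µM fenretinide, a synthetic retinoid, for 120 h. In 3 of the groups, each of 3 replicates, the cells were transduced at 100000 vector genomes per cell with an adeno-associated virus vector: AAV9-AIPL1co with a codon-optimized AIPL1 sequence, AAV9-AIPL1wt with the native AIPL1 sequence, and AAV9-GFP with the gene of a green fluorescent protein. The remaining group was a non-transduced control of 3 replicates, called the control from here on. AIPL1 is a photoreceptor co-chaperone. The interval between transduction and RNA is stated as 18 h in the study's methods and as 24 h in its results. As a model, the groups are limited to 1 established line, and the control took no vector, so the vector particle and its cargo are separated only by comparing vectors. The replicates are called biological by the study, and p-values measure the spread between these samples.

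An integrin is a pair of 1 alpha and 1 beta subunit, and the pairing decides what it binds. ITGB1 pairs with most alpha subunits, among them the laminin receptors with ITGA3, ITGA6 and ITGA7, the collagen receptors with ITGA1, ITGA2, ITGA10 and ITGA11, and the fibronectin receptor with ITGA5. ITGAV pairs with ITGB3, ITGB5, ITGB6 and ITGB8 as well, in receptors for vitronectin and latent TGF-beta, and the ITGAV and ITGB5 pair is known from the apical face of the retinal pigment epithelium, where it takes part in the uptake of shed photoreceptor outer segments. A laminin is a trimer of 1 alpha, 1 beta and 1 gamma chain, and laminins are part of Bruch's membrane, on which the retinal pigment epithelium rests.

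Depth ran from 10088882 to 12811670 reads in a library, of which 6322811 to 9075660 were counted in genes, and the 38 genes held 0.466 to 0.538% of these counts. Control replicate 1 stood apart from control replicates 2 and 3, and it entered no test, following the study's methods. Its values are printed first among the control values below. The date in the deposited file names fell on 2 days, and both controls used were of the second, against 1 of the 3 libraries of each vector group. Values within the first date were therefore available between vectors and not against the control. The share of G and C, weighted by counts, was 49.25 to 49.67% in the control libraries and 50.21 to 50.94% in the transduced ones. Counts on the codon-optimized vector entry were 11 to 19 in the AAV9-AIPL1co libraries and 0 in the other libraries, and the GFP entry had 1 to 4 in the AAV9-GFP libraries. The native AIPL1 vector entry was at 0 in all 12 libraries and the AIPL1 gene at 0 or 1, so the label AAV9-AIPL1wt has no check in these counts. Reads that aligned to several places were not counted.

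Among the epithelial markers, KRT8 and KRT18, the keratins of simple epithelia, led, while RPE65, TYR and DCT, which serve the visual cycle and pigment synthesis, were at 0 in every library. The level of a gene per kilobase of exon, scaled for library size (level per kb), sets genes beside each other. Its length is the union of all annotated exons of a gene, whichever transcripts the cells make. The order of genes and the shares below therefore depend on the annotation. The summed level per kb of the 15 epithelial markers was 203 to 239 in control replicates 2 and 3 (125 in control replicate 1), 177 to 206 with AAV9-GFP, 161 to 177 with AAV9-AIPL1wt and 107 to 119 with AAV9-AIPL1co. KRT18 changed by -1.22 ± 0.10 (adjusted p = 7.12e-08) and KRT8 by -1.20 ± 0.10 (adjusted p = 7.93e-08) on the log2 scale between AAV9-AIPL1co and the control. Of the 8 epithelial markers tested, 2 were higher (25.0%, against 22.4% of all genes) and 3 lower (37.5%, against 24.5%) with AAV9-AIPL1co than in the control (median log2 fold change 0.12). With AAV9-AIPL1wt 0 were higher (26.4% of all genes were) and 2 lower (25.0%, against 30.0%). Counted among the 2 higher with AAV9-AIPL1co is MERTK, at a mean of 19.4 normalized counts in that group. Its means were 9.25 with AAV9-AIPL1wt, 5.27 with AAV9-GFP and 5.36 in the control. Only the AAV9-AIPL1co mean was above the count limit of the expression filter. The share of higher markers thus includes a gene favored for testing by the group in which it is high. The summed level, led by the 2 keratins, thus moved with the groups, and its part in the results below was not tested. In these cell cultures, fewer cells of a type and less RNA per cell cannot be told apart.

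In the control the most abundant integrin subunit per kb was ITGA3, the alpha subunit of the main epithelial laminin receptor, at 174. The beta subunits ITGB5 at 65.5 and ITGB1 at 42.5 and the fibronectin receptor alpha subunit ITGA5 at 42.0 came next among integrins, with ITGB1 and ITGA5 not apart beyond their SDs (1.02 and 5.90, n = 2). By normalized read counts ITGB1 was above ITGB5 (means of 4785 and 3299), so their order per kb rests on exon unions of 14.561 and 6.515 kb. The laminin chains led with LAMB2 at 46.3, LAMC1 at 35.7, LAMB3 at 18.4, LAMA4 at 13.9, LAMA5 at 9.98 and LAMB1 at 9.74. ITGA6, ITGA7 and ITGAV stood at 18.2, 15.3 and 8.05, and no other member exceeded 3.30, the level of ITGB4.

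The 14 untested members had at most 13 counts in any library. Among them, LAMA2 of muscle and nerve basement membranes reached 13 counts, LAMB4 7, the collagen receptor subunit ITGA10 5, and LAMA1 and LAMC3 1 each. The leukocyte subunits ITGAM, ITGAD, ITGB2, ITGAL and ITGB7 reached 4, 2, 1, 0 and 0 counts, and ITGA2B of platelets 3. ITGB6 of epithelia had at most 2 counts, and ITGA8 and ITGA9 at most 1. A count of 0 allows up to 3 counts in a library of this depth. Of the 24 tested, 23 passed the filter in every group, and ITGA11 passed through AAV9-AIPL1wt alone, with 14 counts at most.

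A member is called changed at an adjusted p under 0.05 in edgeR's quasi-likelihood test, with p-values adjusted over all 13896 genes, and it is a DEG at an adjusted p under 0.005 with at least a 3-fold change, the limits the study set. With AAV9-AIPL1wt, 9 of the 24 members were higher than in the control (37.5%, against 26.4% of all genes tested) and 4 were lower (16.7%, against 30.0%). The 9 include ITGA11, which passed the filter through that group alone. With AAV9-AIPL1co, 6 were higher (25.0%, against 22.4%) and 5 lower (20.8%, against 24.5%). With AAV9-GFP, 1 was higher (4.17%, against 2.30%) and 2 were lower (8.33%, against 6.66%). Among the calls over all genes in this last comparison 25.6% were higher, and this share was 38.5% with relative log expression, 40.3% with upper quartile scaling, 39.1% with GC offsets and 18.1% with library size scaling. The members' shares with AAV9-AIPL1co and AAV9-GFP lay near those of all genes.

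LAMA4 and ITGA11 were the DEGs of AAV9-AIPL1wt against the control, 2 of 24 members where 7.27% of all genes were DEGs, and ITGA11 had entered the test only through the group in which it is high. AAV9-AIPL1co against the control gave 0 of 24, where 3.45% of all genes were DEGs. The median log2 fold change of the tested members was 0.22 with AAV9-AIPL1wt, 0.12 with AAV9-AIPL1co and 0.05 with AAV9-GFP, beside -0.04, -0.02 and 0.01 over all genes. The 3 comparisons share the control libraries. With control replicate 1 added, 6 members were higher and 4 lower with AAV9-AIPL1wt. AAV9-AIPL1co then gave 2 higher and 5 lower, and AAV9-GFP gave 0 and 2.

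**Figure D1:**
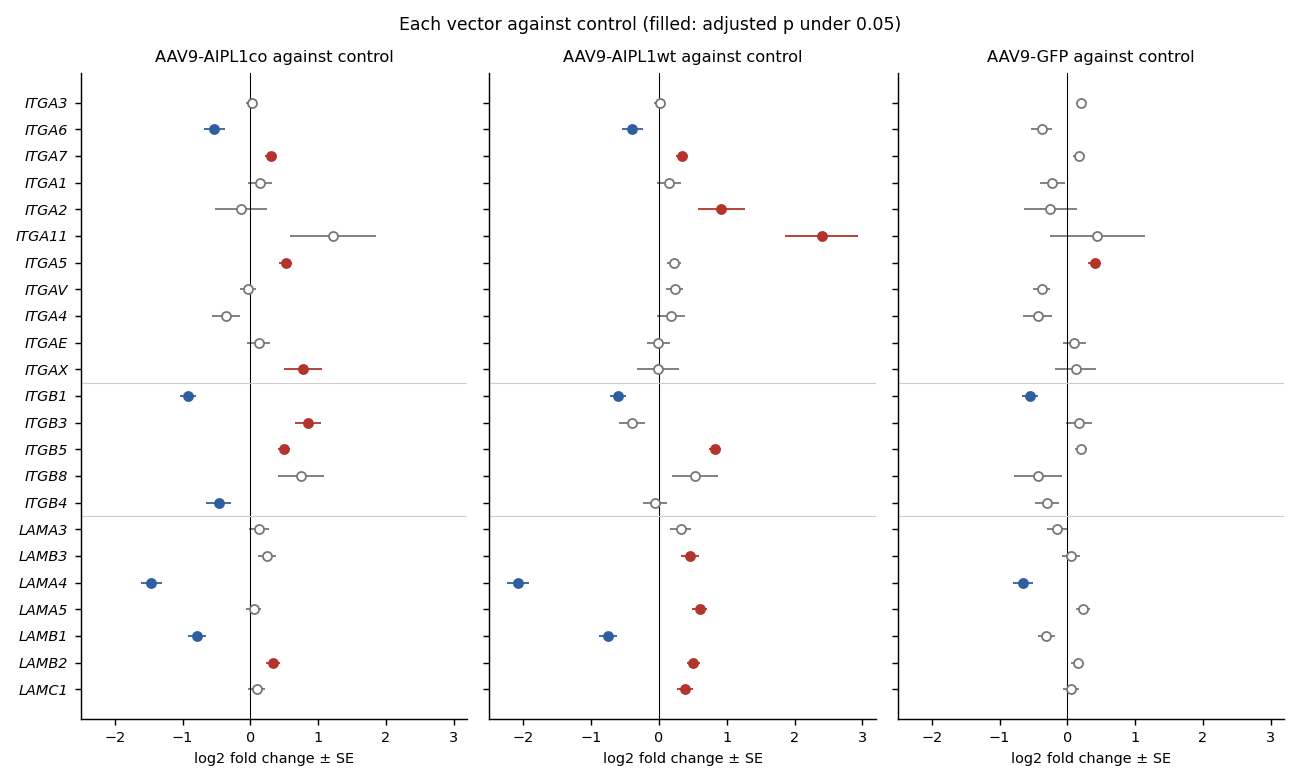
Log2 fold change against the control, with its SE, of 23 of the 24 integrin and laminin subunit genes tested, in a panel for each vector. Filled points passed an adjusted p of 0.05: LAMA4 lies farthest to the left in the AAV9-AIPL1co and AAV9-AIPL1wt panels. ITGA11, which passed the filter through AAV9-AIPL1wt alone, lies farthest to the right in both, filled with AAV9-AIPL1wt and open with AAV9-AIPL1co.

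Among the laminin alpha chains, LAMA4 fell with all 3 vectors and LAMA5 rose with AAV9-AIPL1wt. LAMA4 (ENSG00000112769.20, chromosome 6, 112107931 to 112254939, minus strand, GRCh38) encodes the alpha chain of the laminins of vessel walls and other mesenchymal basement membranes. It had normalized read counts of 402, 506 and 500 with AAV9-AIPL1co, 227, 322 and 357 with AAV9-AIPL1wt, 762, 757 and 942 with AAV9-GFP and 879, 1138 and 1437 in the control. Every library of both AIPL1 vectors lay below every AAV9-GFP and control library, and the AAV9-AIPL1wt values lay below those of AAV9-AIPL1co. The AAV9-GFP libraries lay below control replicates 2 and 3, and 1 of them was above control replicate 1. Changes are given as log2 fold changes ± SE of the first group named against the second. Against the control the change was -2.08 ± 0.16 (adjusted p = 1.72e-08) with AAV9-AIPL1wt, -1.46 ± 0.16 (adjusted p = 1.09e-06) with AAV9-AIPL1co and -0.65 ± 0.15 (adjusted p = 0.0189) with AAV9-GFP. LAMA4 thus fell 4.24-fold with AAV9-AIPL1wt and 2.75-fold with AAV9-AIPL1co, and it was the member called in all 6 comparisons. Against AAV9-GFP it changed by -1.43 ± 0.15 (adjusted p = 5.63e-07) with AAV9-AIPL1wt and by -0.81 ± 0.14 (adjusted p = 0.000385) with AAV9-AIPL1co. The AAV9-GFP call was lost without AAV9-GFP replicate 1 (-0.58, adjusted p = 0.0953), without AAV9-GFP replicate 2 (-0.58, adjusted p = 0.105), without control replicate 2 (-0.76, adjusted p = 0.0603) or without control replicate 3 (-0.43, adjusted p = 0.331), and it was -0.48, adjusted p = 0.102 with control replicate 1 added.

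LAMA5 (ENSG00000130702.15, chromosome 20, 62307955 to 62367312, minus strand), the alpha chain of most adult epithelial basement membranes, had 1241, 1016 and 1174 with AAV9-AIPL1co, 1580, 1843 and 1594 with AAV9-AIPL1wt, 1342, 1305 and 1226 with AAV9-GFP and 1484, 1172 and 1034 in the control. The AAV9-AIPL1wt libraries were the highest of all 12. The AAV9-AIPL1co values overlapped the control, and the AAV9-GFP values lay between control replicate 1 and the other controls. LAMA5 rose with AAV9-AIPL1wt by 0.60 ± 0.11 (adjusted p = 0.000151) against the control and by 0.37 ± 0.10 (adjusted p = 0.00350) against AAV9-GFP. With AAV9-AIPL1co its change against the control was 0.05 ± 0.11 (adjusted p = 0.715). LAMA3 (ENSG00000053747.17, chromosome 18, 23689453 to 23956222, plus strand), the alpha chain of the laminin that anchors hemidesmosomes, had 291.6, 355.7 and 396.5 with AAV9-AIPL1co, 375.3, 438.5 and 368.9 with AAV9-AIPL1wt, 323.0, 250.5 and 284.3 with AAV9-GFP and 523.2, 331.5 and 303.7 in the control. The AAV9-AIPL1wt libraries lay above AAV9-GFP and above control replicates 2 and 3, and below control replicate 1. Its call was in AAV9-AIPL1wt against AAV9-GFP, at 0.47 ± 0.13 (adjusted p = 0.00620). This was lost with all 12 libraries (0.49, adjusted p = 0.0630) and within the first file date alone (0.27, adjusted p = 0.0839), and against the control it gave 0.32 ± 0.15 (adjusted p = 0.0723).

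Among the laminin beta chains LAMB1 fell and LAMB2 rose with both AIPL1 vectors, and LAMB3 rose with AAV9-AIPL1wt. LAMB1 (ENSG00000091136.15, chromosome 7, 107923799 to 108003213, minus strand), the beta chain found in most embryonic laminins, had 697, 830 and 897 with AAV9-AIPL1co, 671, 900 and 921 with AAV9-AIPL1wt, 1098, 1073 and 1209 with AAV9-GFP and 1568, 1371 and 1429 in the control. All 6 libraries with an AIPL1 vector lay below all AAV9-GFP libraries, which lay below all controls. Against the control LAMB1 changed by -0.79 ± 0.13 (adjusted p = 7.59e-05) with AAV9-AIPL1co, by -0.75 ± 0.13 (adjusted p = 8.07e-05) with AAV9-AIPL1wt and by -0.31 ± 0.13 (adjusted p = 0.120) with AAV9-GFP. Both AIPL1 vectors were also below AAV9-GFP, at -0.48 ± 0.12 and -0.44 ± 0.12 (adjusted p = 0.00448 and 0.00470).

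LAMB2 (ENSG00000172037.14, chromosome 3, 49121114 to 49133118, minus strand), the beta chain of the neuromuscular synapse, kidney filter and retina, had 3030, 3045 and 3211 with AAV9-AIPL1co, 3248, 3986 and 3305 with AAV9-AIPL1wt, 2674, 2862 and 2624 with AAV9-GFP and 3588, 2518 and 2403 in the control. It was higher in all AIPL1 vector libraries than in AAV9-GFP and in control replicates 2 and 3, while control replicate 1 was within the AAV9-AIPL1wt range. The rise was 0.51 ± 0.10 (adjusted p = 0.000223) with AAV9-AIPL1wt and 0.33 ± 0.10 (adjusted p = 0.00942) with AAV9-AIPL1co. With all 12 libraries it was 0.34, adjusted p = 0.0652 and 0.13, adjusted p = 0.511, respectively, and the AAV9-AIPL1co call was also lost without control replicate 3 (0.31, adjusted p = 0.0917). LAMB2 was called in AAV9-AIPL1wt against AAV9-GFP as well, at 0.37 ± 0.09 (adjusted p = 0.00163).

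LAMB3 (ENSG00000196878.15, chromosome 1, 209614870 to 209652425, minus strand), the beta chain that joins LAMA3 in the hemidesmosome laminin, had 906, 751 and 682 with AAV9-AIPL1co, 1046, 845 and 846 with AAV9-AIPL1wt, 751, 631 and 681 with AAV9-GFP and 713, 670 and 654 in the control. The AAV9-AIPL1wt libraries lay above the control and AAV9-GFP, and the AAV9-AIPL1co libraries overlapped both of the other vector groups. LAMB3 rose with AAV9-AIPL1wt by 0.46 ± 0.13 (adjusted p = 0.00595) against the control and by 0.41 ± 0.12 (adjusted p = 0.00707) against AAV9-GFP. The first call was lost with a replicate block and GC offsets together, and its values over the alternatives were 0.23 to 0.55. LAMA3 and LAMB3 were thus both called higher in AAV9-AIPL1wt than in AAV9-GFP, where 25.6% of all genes were called higher.

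LAMC1 (ENSG00000135862.6, chromosome 1, 183023420 to 183145592, plus strand), the gamma chain of most laminins, had 2287, 2436 and 2744 with AAV9-AIPL1co, 2619, 3618 and 2851 with AAV9-AIPL1wt, 2358, 2414 and 2463 with AAV9-GFP and 2411, 2418 and 2242 in the control. The AAV9-AIPL1wt values were above those of AAV9-GFP and the control, and AAV9-AIPL1wt replicate 2 stood highest. LAMC1 rose by 0.38 ± 0.12 (adjusted p = 0.0106) against the control and by 0.33 ± 0.10 (adjusted p = 0.0132) against AAV9-GFP. The first of these calls was lost without control replicate 3 (0.36, adjusted p = 0.0829) and the second without AAV9-AIPL1wt replicate 2 (0.19, adjusted p = 0.0869).

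**Figure D2:**
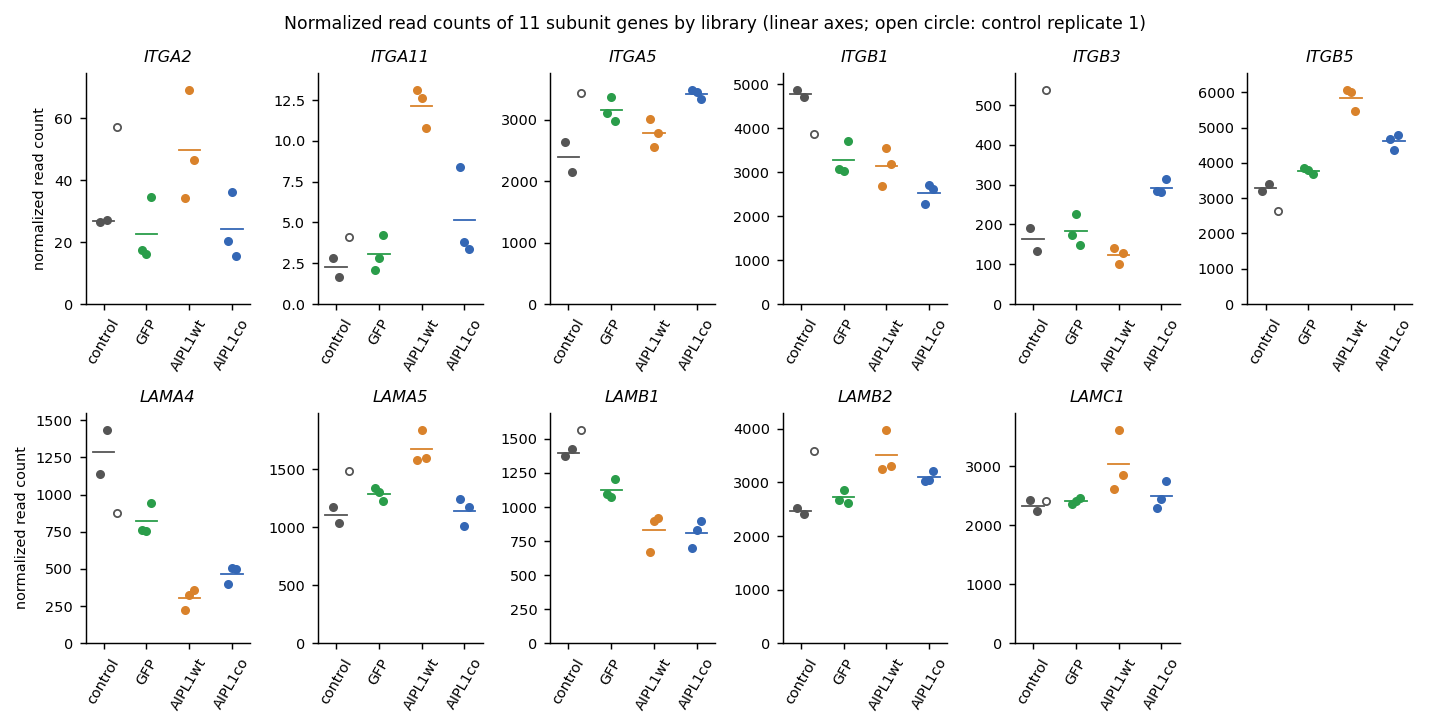
Normalized read counts of 11 of the 12 subunit genes called in at least 3 of the 6 comparisons, on a linear axis from 0 in each panel. Points are libraries, with control replicate 1 drawn open, and lines are group means without it: for LAMA4 and LAMB1 the AIPL1 vector libraries sit below all others, and for ITGB5 above all others.

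Among the integrin beta subunits, ITGB1 fell with all 3 vectors and ITGB5 rose with both AIPL1 vectors. ITGB1 (ENSG00000150093.20, chromosome 10, 32887273 to 33005792, minus strand), the beta subunit shared by most matrix receptors, had 2277, 2706 and 2610 with AAV9-AIPL1co, 2678, 3559 and 3196 with AAV9-AIPL1wt, 3079, 3037 and 3707 with AAV9-GFP and 3865, 4866 and 4704 in the control. All 9 transduced libraries lay below all 3 control libraries. The AAV9-AIPL1co libraries were the lowest, although 1 AAV9-AIPL1wt library fell among them. The change was -0.92 ± 0.12 (adjusted p = 6.26e-06) with AAV9-AIPL1co, -0.60 ± 0.12 (adjusted p = 0.000244) with AAV9-AIPL1wt and -0.55 ± 0.12 (adjusted p = 0.0123) with AAV9-GFP, which are falls of 1.89, 1.52 and 1.46-fold. The AAV9-GFP call was lost without AAV9-GFP replicate 1 (-0.49, adjusted p = 0.0735), without AAV9-GFP replicate 2 (-0.48, adjusted p = 0.0863), without control replicate 2 (-0.47, adjusted p = 0.119) or without control replicate 3 (-0.53, adjusted p = 0.229). Against AAV9-GFP, ITGB1 was lower with AAV9-AIPL1co (-0.37 ± 0.11, adjusted p = 0.0120), a call lost without AAV9-AIPL1co replicate 1 (-0.30, adjusted p = 0.0677) or without AAV9-GFP replicate 3 (-0.28, adjusted p = 0.0914), and with AAV9-AIPL1wt it gave -0.06 ± 0.11 (adjusted p = 0.674).

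ITGB5 (ENSG00000082781.12, chromosome 3, 124761948 to 124901418, minus strand), the partner of ITGAV in a vitronectin receptor, had 4688, 4371 and 4805 with AAV9-AIPL1co, 6060, 6014 and 5477 with AAV9-AIPL1wt, 3868, 3810 and 3674 with AAV9-GFP and 2647, 3193 and 3404 in the control. The groups did not overlap and stood in the order control, AAV9-GFP, AAV9-AIPL1co and AAV9-AIPL1wt from low to high. The rise against the control was 0.83 ± 0.09 (adjusted p = 4.62e-07) with AAV9-AIPL1wt, or 1.77-fold, and 0.49 ± 0.09 (adjusted p = 0.000183) with AAV9-AIPL1co. With AAV9-GFP the change was 0.20 ± 0.09 (adjusted p = 0.142). ITGB5 was also higher than in AAV9-GFP with AAV9-AIPL1wt (0.63 ± 0.08, adjusted p = 2.79e-06) and with AAV9-AIPL1co (0.29 ± 0.08, adjusted p = 0.00761). The second of these calls was lost with all 12 libraries (0.29, adjusted p = 0.0661), with the date term added to them (0.29, adjusted p = 0.0644) and within the first file date alone (0.25, adjusted p = 0.0609).

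ITGB3 (ENSG00000259207.10, chromosome 17, 47253827 to 47313743, plus strand), which pairs with ITGAV, had 283, 281 and 313 with AAV9-AIPL1co, 140, 101 and 128 with AAV9-AIPL1wt, 173, 225 and 149 with AAV9-GFP and 537, 192 and 133 in the control. The AAV9-AIPL1co values were above all others except control replicate 1, and the AAV9-AIPL1wt values were below those of AAV9-GFP. ITGB3 rose with AAV9-AIPL1co by 0.85 ± 0.19 (adjusted p = 0.00110) against control replicates 2 and 3 and by 0.68 ± 0.16 (adjusted p = 0.00412) against AAV9-GFP. With control replicate 1, by itself the highest library, the change against the control was 0.02, adjusted p = 0.975. With AAV9-AIPL1wt it was lower than with AAV9-GFP, at -0.58 ± 0.18 (adjusted p = 0.0106), a call lost without AAV9-GFP replicate 2 (-0.37, adjusted p = 0.106). Exons of another gene cover 33.18% of the ITGB3 exon bases, and reads there cannot be assigned to a strand in these libraries.

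ITGB8 (ENSG00000105855.10, chromosome 7, 20330702 to 20415754, plus strand), whose pair with ITGAV releases TGF-beta from its latent form, had 313, 470 and 594 with AAV9-AIPL1co, 199, 679 and 279 with AAV9-AIPL1wt, 170, 216 and 219 with AAV9-GFP and 417, 239 and 302 in the control. The AAV9-AIPL1co values lay above AAV9-GFP, and AAV9-AIPL1wt replicate 2 was far above the other 2 libraries of its group. ITGB8 was higher than in AAV9-GFP with AAV9-AIPL1co by 1.18 ± 0.31 (adjusted p = 0.00778) and with AAV9-AIPL1wt by 0.96 ± 0.31 (adjusted p = 0.0163). The second call was lost without AAV9-AIPL1wt replicate 2 (0.26, adjusted p = 0.328) or without AAV9-GFP replicate 1 (0.87, adjusted p = 0.0624). ITGB4 (ENSG00000132470.14, chromosome 17, 75721328 to 75757818, plus strand), the hemidesmosome partner of ITGA6, had 121, 137 and 114 with AAV9-AIPL1co, 152, 204 and 136 with AAV9-AIPL1wt, 121, 131 and 169 with AAV9-GFP and 422, 165 and 180 in the control. The AAV9-AIPL1co values were below all controls, and control replicate 1 stood highest. Its call was in AAV9-AIPL1co against the control, at -0.47 ± 0.18 (adjusted p = 0.0380), and it was kept in 17 of 25 alternatives, with log2 fold changes of -1.09 to -0.40. It was lost without AAV9-AIPL1co replicate 1 (-0.44, adjusted p = 0.102), without AAV9-AIPL1co replicate 3 (-0.42, adjusted p = 0.107), without AAV9-GFP replicate 2 (-0.46, adjusted p = 0.0541), without control replicate 2 (-0.52, adjusted p = 0.0908) or without control replicate 3 (-0.40, adjusted p = 0.213).

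Sequence upstream of the start is shown for members called in 4 or more comparisons, to set the genes that fell beside the gene that rose. These are LAMA4, ITGB1, LAMB1, ITGB5 and ITGB3. RefSeq promoter sequences (GRCh38.p14) were matched for 26 of the 38 members, ITGB3 not among them. The printed bases are the longest run without an annotated exon among the 250 before the RefSeq start, read 5′ to 3′ on the gene's strand. For LAMA4 this run had fewer than 100 bases. Capitals mark matches, on either strand, to 5 motifs searched. These were the GC box (GGGCGG), the box named CCAAT after its letters, the TATA box (TATAAA), the AP-1 site (TGANTCA) and the TEAD site (CATTCC), and adjoining GC boxes may overlap. ITGB1 is shown from chr10:32958326-32958436, LAMB1 from chr7:108003214-108003411 and ITGB5 from chr3:124901419-124901668, all on the minus strand.
ITGB1: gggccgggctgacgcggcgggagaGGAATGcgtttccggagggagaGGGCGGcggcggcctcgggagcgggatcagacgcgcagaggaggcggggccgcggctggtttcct
LAMB1: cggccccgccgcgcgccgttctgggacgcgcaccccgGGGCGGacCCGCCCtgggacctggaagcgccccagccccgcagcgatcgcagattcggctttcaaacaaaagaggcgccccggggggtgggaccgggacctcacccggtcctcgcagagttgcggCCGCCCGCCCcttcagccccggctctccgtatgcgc
ITGB5: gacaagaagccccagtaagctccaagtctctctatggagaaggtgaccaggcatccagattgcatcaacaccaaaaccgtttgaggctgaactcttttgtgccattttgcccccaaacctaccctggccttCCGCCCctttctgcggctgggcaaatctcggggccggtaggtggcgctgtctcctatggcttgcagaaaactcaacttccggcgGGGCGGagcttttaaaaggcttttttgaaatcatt
The stretches cover different positions: 206 to 96 bases before the start for ITGB1, 250 to 53 for LAMB1 and 250 to 1 for ITGB5. The bases nearest the start were thus searched for ITGB5 alone, and the stretches are not a like-for-like comparison. The ITGB1 and LAMB1 stretches were 75.7 and 75.3% G and C, against 52.8% for ITGB5. ITGB1 held 1 GC box and 1 TEAD motif, LAMB1 held 4 GC boxes and ITGB5 2. The same positions of all 35116 RefSeq windows held a GC box in 22.7, 34.5 and 42.6% for these 3 stretches in turn, and a TEAD motif in 5.5% for that of ITGB1. The remaining motifs had no match in these letters.

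Among the alpha subunits, ITGA7 rose and ITGA6 fell with both AIPL1 vectors, and ITGA3 was close to the control with both. ITGA3 (ENSG00000005884.18, chromosome 17, 50055968 to 50090481, plus strand) had 12817, 12600 and 14723 with AAV9-AIPL1co, 13170, 13086 and 13659 with AAV9-AIPL1wt, 15783, 14370 and 15246 with AAV9-GFP and 10854, 13076 and 13280 in the control. All AAV9-GFP libraries except replicate 2 were above all others. Against the control ITGA3 gave 0.02 ± 0.08 with AAV9-AIPL1co and 0.01 ± 0.08 with AAV9-AIPL1wt. Its call, in AAV9-AIPL1wt against AAV9-GFP, was -0.19 ± 0.08 (adjusted p = 0.0480) and held in 10 of 26 alternatives (-0.24 to -0.13). Leaving out AAV9-AIPL1co replicate 1 or 2, any AAV9-AIPL1wt library or any AAV9-GFP library ended it, with values of -0.20 to -0.13.

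ITGA6 (ENSG00000091409.16, chromosome 2, 172427354 to 172506459, plus strand), a further laminin receptor subunit, had 570, 635 and 751 with AAV9-AIPL1co, 552, 851 and 740 with AAV9-AIPL1wt, 741, 583 and 841 with AAV9-GFP and 488, 942 and 939 in the control. Control replicates 2 and 3 were the highest and control replicate 1 the lowest of the 12. ITGA6 fell with both AIPL1 vectors, at -0.53 ± 0.16 (adjusted p = 0.0118) with AAV9-AIPL1co and -0.39 ± 0.16 (adjusted p = 0.0470) with AAV9-AIPL1wt, calls kept in 18 of 25 alternatives and 8 of 25 alternatives. The first was lost without AAV9-AIPL1co replicate 1 (-0.42, adjusted p = 0.0676), without control replicate 2 (-0.51, adjusted p = 0.0698) or without control replicate 3 (-0.52, adjusted p = 0.0709). The second was lost without any 1 of the libraries in the fit except AAV9-AIPL1co replicate 3 and AAV9-AIPL1wt replicate 2, with values of -0.39 to -0.19. With all 12 libraries the changes were -0.27 and -0.10.

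ITGA7 (ENSG00000135424.19, chromosome 12, 55684568 to 55716404, minus strand), the laminin receptor subunit best known from muscle, had 1284, 1317 and 1362 with AAV9-AIPL1co, 1353, 1333 and 1395 with AAV9-AIPL1wt, 1153, 1272 and 1208 with AAV9-GFP and 1601, 1028 and 1124 in the control. Both AIPL1 vectors were above AAV9-GFP and control replicates 2 and 3, and control replicate 1 was the highest library. ITGA7 rose by 0.34 ± 0.09 (adjusted p = 0.00452) with AAV9-AIPL1wt and by 0.30 ± 0.09 (adjusted p = 0.0134) with AAV9-AIPL1co. With all 12 libraries neither was called, at 0.15, adjusted p = 0.395 and 0.08, adjusted p = 0.684, and the second was also lost without control replicate 2 (0.25, adjusted p = 0.131).

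ITGA5 (ENSG00000161638.11, chromosome 12, 54395261 to 54419266, minus strand), the fibronectin receptor subunit, had 3482, 3460 and 3337 with AAV9-AIPL1co, 3009, 2553 and 2792 with AAV9-AIPL1wt, 3115, 3379 and 2975 with AAV9-GFP and 3435, 2635 and 2159 in the control. The AAV9-AIPL1co libraries were above control replicates 2 and 3 and above AAV9-AIPL1wt, and control replicate 1 lay among them. ITGA5 rose by 0.52 ± 0.10 (adjusted p = 0.000494) with AAV9-AIPL1co and by 0.40 ± 0.10 (adjusted p = 0.0253) with AAV9-GFP. With all 12 libraries both were lost (0.32, adjusted p = 0.0886 and 0.21, adjusted p = 0.343), and the AAV9-GFP call was lost without AAV9-GFP replicate 1 (0.43, adjusted p = 0.0708), without AAV9-GFP replicate 2 (0.37, adjusted p = 0.0997) or without control replicate 3 (0.30, adjusted p = 0.295).

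ITGAV (ENSG00000138448.13, chromosome 2, 186590010 to 186680901, plus strand), the partner of ITGB5, had 1097, 1200 and 1222 with AAV9-AIPL1co, 1228, 1579 and 1415 with AAV9-AIPL1wt, 809, 981 and 990 with AAV9-GFP and 2016, 1266 and 1141 in the control. AAV9-GFP was the lowest group, below every other library, and control replicate 1 was the highest library. Against AAV9-GFP, ITGAV was higher with AAV9-AIPL1wt by 0.60 ± 0.11 (adjusted p = 0.000125) and with AAV9-AIPL1co by 0.34 ± 0.11 (adjusted p = 0.0203). The AAV9-AIPL1co call was lost without AAV9-AIPL1co replicate 2 (0.32, adjusted p = 0.0710), without AAV9-AIPL1co replicate 3 (0.31, adjusted p = 0.0700) or without AAV9-GFP replicate 1 (0.25, adjusted p = 0.132). Against the control ITGAV gave 0.23 ± 0.12 (adjusted p = 0.107), -0.04 ± 0.12 (adjusted p = 0.814) and -0.38 ± 0.12 (adjusted p = 0.0512) with AAV9-AIPL1wt, AAV9-AIPL1co and AAV9-GFP.

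The collagen receptor subunits ITGA2 and ITGA11 were low and were higher with AAV9-AIPL1wt. ITGA2 (ENSG00000164171.11, chromosome 5, 52989340 to 53094779, plus strand) had 20.5, 36.1 and 15.6 with AAV9-AIPL1co, 34.1, 69.0 and 46.4 with AAV9-AIPL1wt, 17.5, 16.1 and 34.6 with AAV9-GFP and 57.3, 26.4 and 27.2 in the control. Its AAV9-AIPL1wt values were above control replicates 2 and 3 and overlapped AAV9-GFP, and control replicate 1 lay among them. ITGA2 rose by 0.92 ± 0.35 (adjusted p = 0.0330) against the control and by 1.17 ± 0.33 (adjusted p = 0.00628) against AAV9-GFP, and the first call was lost without AAV9-AIPL1wt replicate 2 (0.60, adjusted p = 0.157), without control replicate 2 (0.94, adjusted p = 0.109) or without control replicate 3 (0.98, adjusted p = 0.113). It was also lost with all 12 libraries (0.47, adjusted p = 0.334), with a file date term (0.97, adjusted p = 0.0513) and with library size scaling (0.84, adjusted p = 0.0576), and the second call was lost within the first file date alone (0.63, adjusted p = 0.155). ITGA11 (ENSG00000137809.17, chromosome 15, 68296532 to 68432163, minus strand) had 8.38, 3.80 and 3.35 with AAV9-AIPL1co, 13.1, 12.6 and 10.8 with AAV9-AIPL1wt, 2.06, 2.85 and 4.20 with AAV9-GFP and 4.09, 2.83 and 1.65 in the control. Its AAV9-AIPL1wt values lay above all others. ITGA11 was a DEG in AAV9-AIPL1wt against the control, at 2.40 ± 0.54 (adjusted p = 0.00106), and against AAV9-GFP, at 1.96 ± 0.46 (adjusted p = 0.00169), where 5.20% of all genes were DEGs. It had passed the filter through the group in which it is high.

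ITGA1 (ENSG00000213949.10, chromosome 5, 52787916 to 52959209, plus strand), also a collagen receptor subunit, was not called in any comparison, and its group means were 171 ± 16.4 (SD, n = 3) with AAV9-AIPL1co, 171 ± 36.4 (SD, n = 3) with AAV9-AIPL1wt, 134 ± 23.5 (SD, n = 3) with AAV9-GFP and 155 ± 14.2 (SD, n = 2) in control replicates 2 and 3. Exons of other genes overlap 13.24% of its exon bases. ITGAE (ENSG00000083457.12, chromosome 17, 3714628 to 3801188, minus strand), which pairs with ITGB7 on lymphocytes of epithelia, was not called either, at 158 ± 14.2 (SD, n = 3), 146 ± 29.3 (SD, n = 3), 156 ± 18.2 (SD, n = 3) and 145 ± 16.3 (SD, n = 2) in the same order. ITGB7 had 0 counts in all libraries.

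ITGA4 (ENSG00000115232.14, chromosome 2, 181457202 to 181538940, plus strand), a receptor subunit for fibronectin and VCAM1, had 53.1, 90.3 and 67.0 with AAV9-AIPL1co, 82.7, 122 and 99.2 with AAV9-AIPL1wt, 63.8, 74.0 and 61.9 with AAV9-GFP and 268, 92.3 and 88.3 in the control. The AAV9-AIPL1wt values lay above AAV9-GFP, and control replicate 1 was the highest. ITGA4 was higher with AAV9-AIPL1wt than with AAV9-GFP by 0.62 ± 0.19 (adjusted p = 0.0129), a call lost without AAV9-AIPL1wt replicate 2 (0.46, adjusted p = 0.0690). Exons of CERKL overlap 26.40% of its exon bases. ITGAX (ENSG00000140678.17, chromosome 16, 31355134 to 31382999, plus strand), a subunit of myeloid cells, had 44.7, 39.9 and 31.3 with AAV9-AIPL1co, 22.3, 19.7 and 24.8 with AAV9-AIPL1wt, 26.7, 29.4 and 16.8 with AAV9-GFP and 45.0, 27.3 and 18.2 in the control. The AAV9-AIPL1co values lay above the other groups apart from control replicate 1. ITGAX rose with AAV9-AIPL1co by 0.78 ± 0.28 (adjusted p = 0.0302) against the control and was lost without AAV9-AIPL1co replicate 1 (0.68, adjusted p = 0.0931), without AAV9-AIPL1co replicate 2 (0.76, adjusted p = 0.0686) or without control replicate 3 (0.52, adjusted p = 0.289). Its usual partner ITGB2 had at most 1 count, and among 10 leukocyte markers CD3E and LYZ were at 0 and the summed level per kb was 1.24 to 1.60 with AAV9-AIPL1co against 2.76 to 3.17 in control replicates 2 and 3.

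Expressed per length of the exon union, each subunit can be given as a share of its class. The size of a share or ratio depends on these annotated lengths, which are the same in every group. ITGB5 made up 56.1 ± 1.72% (SD, n = 2) of the beta subunits in the control, and 67.0 ± 2.60% (SD, n = 3) with AAV9-GFP. AAV9-AIPL1wt reached 76.0 ± 3.11% and AAV9-AIPL1co 72.8 ± 2.32% (SD, n = 3 for both). The share of ITGB1 was 36.4 ± 1.41% in the control, 25.9 ± 2.61% with AAV9-GFP, 18.3 ± 2.21% with AAV9-AIPL1wt and 17.8 ± 1.62% with AAV9-AIPL1co, so that the 2 AIPL1 vectors did not differ beyond their SDs. The ratio of ITGB5 to ITGB1 per length was 1.53, 1.47 and 1.62 in control replicates 1, 2 and 3, and 2.81, 2.80 and 2.22 with AAV9-GFP. AAV9-AIPL1wt libraries had ratios of 5.06, 3.78 and 3.83, and AAV9-AIPL1co libraries 4.60, 3.61 and 4.11. For this ratio control replicate 1 lay between the other controls, and no transduced library overlapped the control. The exons of ITGB5 are 54.0% G and C and those of ITGB1 41.8%. Shares and ratios were taken without GC offsets, and the part of GC content in them was not tested.

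LAMA4 was the leading laminin alpha chain in control replicates 2 and 3, with 51.8 ± 6.16% (n = 2) of the class. AAV9-GFP had a LAMA4 share of 38.2 ± 3.89%, AAV9-AIPL1co of 27.3 ± 3.40% and AAV9-AIPL1wt of 14.8 ± 2.86% (SD, n = 3 for each). LAMA5 led in the other groups, with 50.6 ± 3.55%, 55.8 ± 5.28% and 69.0 ± 2.13%, against 37.4 ± 5.01% in the control. Per length, the ratio of LAMA5 to LAMA4 was 5.84, 4.80 and 3.74 in the AAV9-AIPL1wt libraries and 2.59, 1.68 and 1.97 in the AAV9-AIPL1co libraries. In AAV9-GFP it was 1.48, 1.45 and 1.09 and in the control 1.42, 0.863 and 0.603, so AAV9-GFP overlapped control replicate 1. The exons of LAMA5 are 65.7% G and C and those of LAMA4 43.4%, again without GC offsets. LAMB1 made up 13.1 ± 0.651% (SD, n = 2) of the beta chains in the control and 9.45 to 10.9% in the AAV9-GFP libraries. It was at 5.94 ± 1.02% with AAV9-AIPL1wt, against 6.57 ± 0.896% with AAV9-AIPL1co (SD, n = 3 for both).

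**Figure D3:**
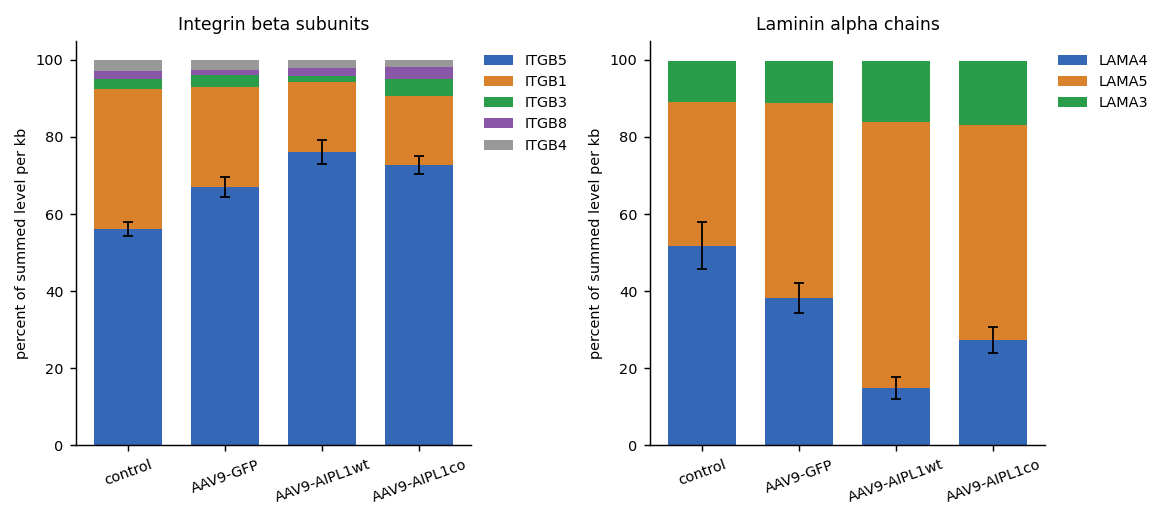
Stacked mean share of each integrin beta subunit (left) and laminin alpha chain (right) in the summed level per kb of its class, in percent, by group, with control replicate 1 left out. Error bars are the SD of ITGB5 and LAMA4 over libraries: ITGB5 grows from 56.1% in the control to 76.0% with AAV9-AIPL1wt, while LAMA4 shrinks from 51.8 to 14.8%.

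Both AIPL1 vectors were then set against AAV9-GFP and against each other. With AAV9-AIPL1wt 12 members were higher than with AAV9-GFP, of the 24 tested (25.6% of all genes were) and 4 were lower (16.7%, against 25.5%), and the median was 0.35, beside 0.02 over all genes. With AAV9-AIPL1co 4 were higher (16.7%, against 16.1%) and 3 lower (12.5%, against 14.8%). Between the AIPL1 vectors, 4 members were higher with AAV9-AIPL1co (16.7%, against 22.3%) and 8 lower (33.3%, against 19.3%), with a median of -0.18 beside 0.02. Counted among the 12 higher and the 8 lower is ITGA11, which had passed the filter through AAV9-AIPL1wt alone. Between the AIPL1 vectors, without AAV9-AIPL1wt replicate 2 the number lower was 2, and without AAV9-AIPL1co replicate 1 the number higher was 2. The higher count over AAV9-GFP was 7 within the first file date alone.

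The 8 members higher with AAV9-AIPL1wt than with AAV9-AIPL1co included the laminin chains LAMA5 and LAMC1, the alpha subunits ITGA2, ITGA4 and ITGA11 and the beta subunits ITGB1 and ITGB5. LAMA5 differed by -0.55 ± 0.10 (adjusted p = 0.000226) and ITGB5 by -0.34 ± 0.08 (adjusted p = 0.00161), as AAV9-AIPL1co minus AAV9-AIPL1wt. ITGA11 differed by -1.18 ± 0.41 (adjusted p = 0.0269), ITGA2 by -1.06 ± 0.32 (adjusted p = 0.0136) and ITGA4 by -0.54 ± 0.19 (adjusted p = 0.0305). Of these, ITGA11 had passed the filter through AAV9-AIPL1wt alone, the group in which it is high. The ITGA2 and ITGA4 values overlapped between these groups. ITGB1 gave -0.31 ± 0.11 (adjusted p = 0.0230) and LAMC1 -0.29 ± 0.10 (adjusted p = 0.0353), again with overlap. Within the first file date alone, the LAMA5 difference was -0.55, adjusted p = 0.000265 and that of ITGB5 -0.34, adjusted p = 0.0112. The call of ITGB1 was lost without AAV9-AIPL1co replicate 1 (-0.27, adjusted p = 0.0808) or without AAV9-AIPL1wt replicate 2 (-0.22, adjusted p = 0.101) and that of ITGA2 without AAV9-AIPL1co replicate 1 (-0.97, adjusted p = 0.0514), without AAV9-AIPL1co replicate 3 (-0.85, adjusted p = 0.0616) or without AAV9-AIPL1wt replicate 2 (-0.74, adjusted p = 0.0937). ITGA4 was lost without AAV9-AIPL1co replicate 1 (-0.40, adjusted p = 0.135), without AAV9-AIPL1co replicate 3 (-0.51, adjusted p = 0.0798) or without AAV9-AIPL1wt replicate 2 (-0.38, adjusted p = 0.143), and ITGA11 without AAV9-AIPL1co replicate 2 (-0.99, adjusted p = 0.104), without AAV9-AIPL1co replicate 3 (-0.97, adjusted p = 0.0934) or without AAV9-AIPL1wt replicate 2 (-1.15, adjusted p = 0.0655). LAMC1 was lost without AAV9-AIPL1co replicate 1 (-0.26, adjusted p = 0.103), without AAV9-AIPL1co replicate 2 (-0.27, adjusted p = 0.103) or without AAV9-AIPL1wt replicate 2 (-0.14, adjusted p = 0.225). Of the 35 calls between vectors, 20 held within the first file date. Among those lost there were, in AAV9-AIPL1wt against AAV9-GFP, ITGA3 at -0.23, ITGA4 at 0.52, ITGB3 at -0.28, ITGB8 at 0.29 and LAMC1 at 0.16, and between the AIPL1 vectors ITGA2 at -0.63, ITGA4 at -0.22, ITGB1 at -0.16 and LAMC1 at -0.09.

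Members higher with AAV9-AIPL1co were ITGB3, LAMA4, ITGAX and ITGA5. ITGB3 was 2.39-fold higher, at 1.26 ± 0.17 (adjusted p = 1.81e-05), with no overlap of the libraries. LAMA4 was at 0.63 ± 0.15 (adjusted p = 0.00307), so the fall of this chain was larger with AAV9-AIPL1wt. Within the first file date the ITGB3 difference was 1.13, adjusted p = 2.53e-06 and that of LAMA4 0.76, adjusted p = 0.000409. ITGA5 gave 0.30 ± 0.09 (adjusted p = 0.0125), lost without AAV9-AIPL1co replicate 1 (0.26, adjusted p = 0.0562), and ITGAX 0.81 ± 0.26 (adjusted p = 0.0191), lost without AAV9-AIPL1co replicate 1 (0.66, adjusted p = 0.0931), without AAV9-AIPL1co replicate 2 (0.79, adjusted p = 0.0544) or without AAV9-AIPL1wt replicate 2 (0.71, adjusted p = 0.0644). Both were also lost within the first file date, with ITGA5 at 0.22 and ITGAX at 0.58.

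**Figure D4:**
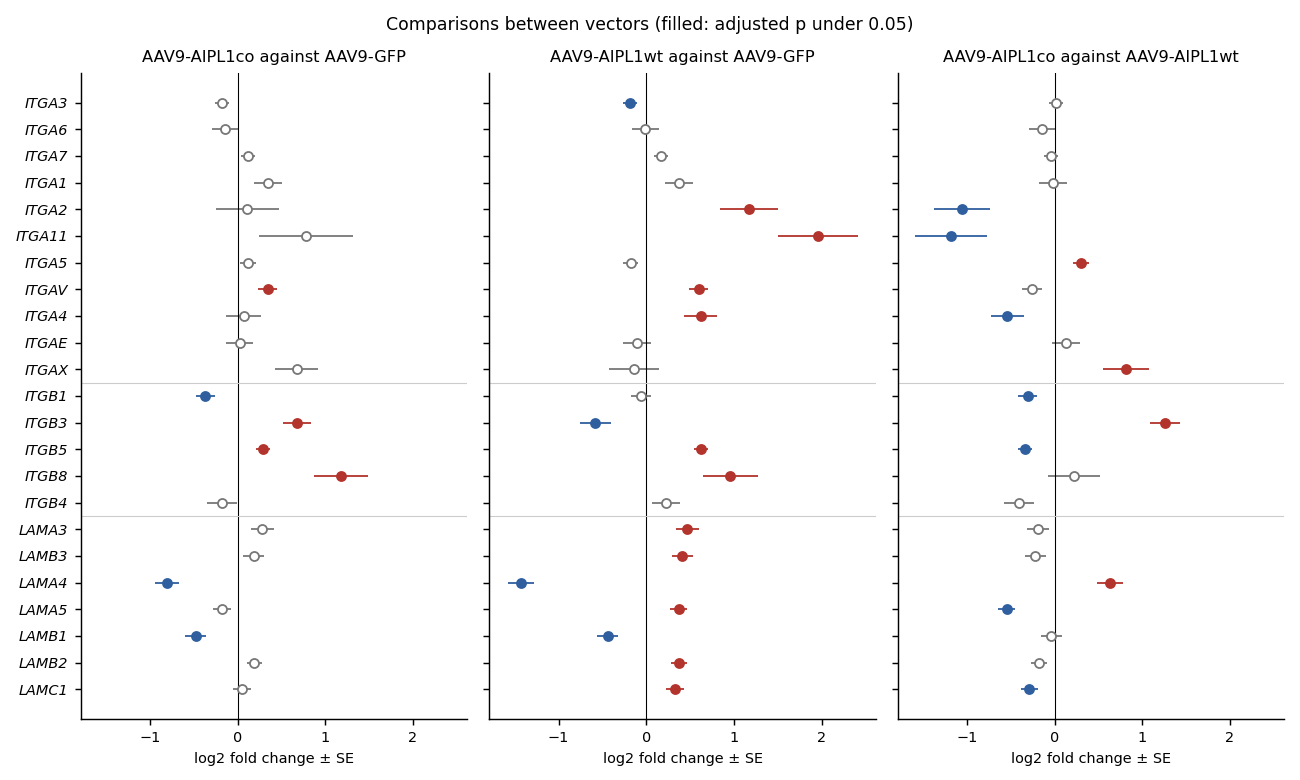
Log2 fold change with its SE of 23 of the 24 tested subunit genes in AAV9-AIPL1co against AAV9-GFP, AAV9-AIPL1wt against AAV9-GFP and AAV9-AIPL1co against AAV9-AIPL1wt. Filled points passed an adjusted p of 0.05: ITGB3 is the rightmost filled point of the last panel at 1.26, and ITGA11, which passed the filter through AAV9-AIPL1wt alone, the leftmost at -1.18.

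Members called lower had in the median a lower GC content than members called higher, with exceptions. Exon GC content had a median of 42.8% over the 4 members lower with AAV9-AIPL1wt and of 54.0% over the 9 higher, and of 43.2 and 55.3% over the 5 lower and 6 higher with AAV9-AIPL1co. ITGA2, higher with AAV9-AIPL1wt, had 40.2%, below the 41.8 to 43.4% of the 4 lower members, and ITGB4, lower with AAV9-AIPL1co, had 64.0%. Over all 13896 genes, those of 40 to 45% GC had a median log2 fold change against the control of -0.24 with AAV9-AIPL1wt, -0.27 with AAV9-AIPL1co and -0.20 with AAV9-GFP. Genes above 60% had 0.30, 0.34 and 0.23. With GC offsets fitted to each library, LAMA4 was at -1.84, adjusted p = 2.57e-08 with AAV9-AIPL1wt and at -1.28, adjusted p = 1.77e-06 with AAV9-AIPL1co. LAMB1 was at -0.50, adjusted p = 0.00105 and -0.60, adjusted p = 0.000379, and ITGB5 at 0.70, adjusted p = 2.46e-06 and 0.26, adjusted p = 0.0171. ITGB1 was called under both vectors too, at -0.28, adjusted p = 0.0197 and -0.65, adjusted p = 4.09e-05. These 4 members kept their direction and their call, each with a smaller change than without the offsets. For ITGB1 with AAV9-AIPL1wt it was -0.28 beside -0.60. How much of the changes goes with GC content was not tested.

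The GC offsets ended 10 of the 62 calls. With AAV9-GFP against the control all 3 calls were lost, with ITGB1 at -0.32, LAMA4 at -0.49 and ITGA5 at 0.24. ITGA6 and ITGA7 were lost under both AIPL1 vectors, ITGA6 at -0.29 and -0.10 and ITGA7 at 0.06 and 0.20 with AAV9-AIPL1co and AAV9-AIPL1wt. ITGAX at 0.54 and LAMB2 at 0.04 were lost with AAV9-AIPL1co, and ITGA3 at -0.17 was lost in AAV9-AIPL1wt against AAV9-GFP.

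**Figure D5:**
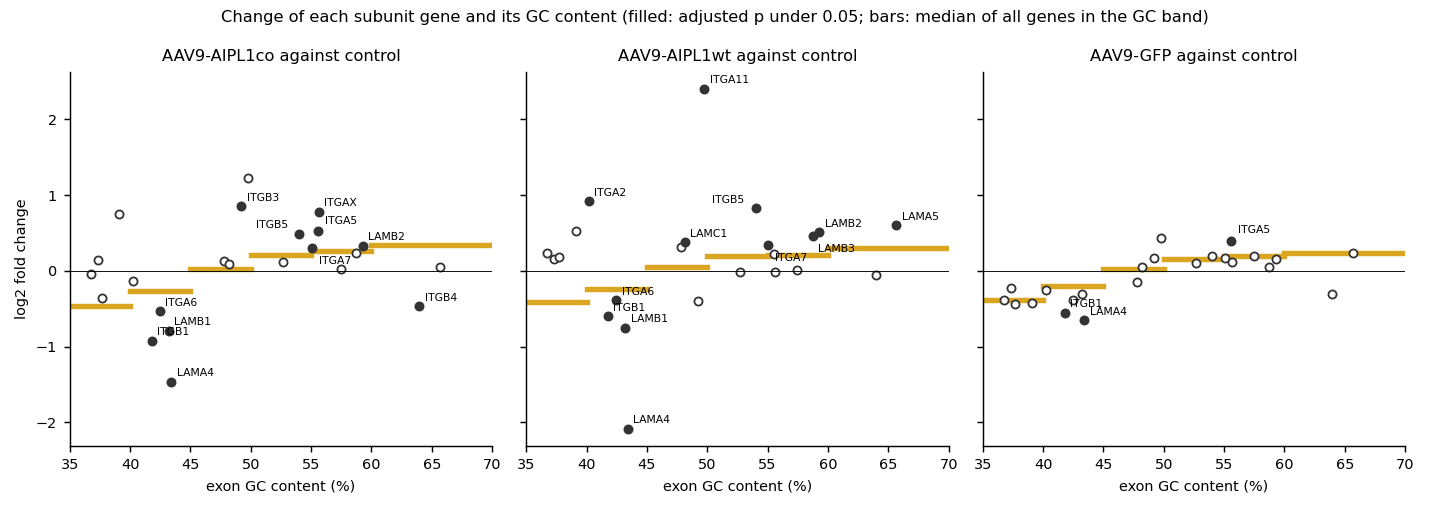
Log2 fold change against the control of 23 of the 24 tested subunit genes plotted on its exon GC content in percent, in a panel for each vector. Horizontal bars are the median of all tested genes in that GC band, which rise from -0.41 to 0.30 with AAV9-AIPL1wt. LAMA4, LAMB1 and ITGB1 lie below the bar of their band in the AAV9-AIPL1co and AAV9-AIPL1wt panels.

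The genes around integrins were counted in lists, against the control unless another group is named. Of all genes tested, AAV9-AIPL1co had 22.4% higher and 24.5% lower. AAV9-AIPL1wt had 26.4% higher and 30.0% lower, while AAV9-GFP stood at 2.30% higher and 6.66% lower. Of 29 tested genes of integrin activation and the adhesion plaque, where integrins join actin, AAV9-AIPL1co gave 3 higher (10.3%) and 14 lower (48.3%), AAV9-AIPL1wt 10 (34.5%) and 9 (31.0%), and AAV9-GFP 4 (13.8%) and 0. BCAR1, an adaptor of adhesion signalling, rose with AAV9-AIPL1wt by 1.26 ± 0.10 (adjusted p = 2.97e-08). TNS1, which links integrin tails to actin, fell with AAV9-AIPL1co, at -1.38 ± 0.17 (adjusted p = 6.73e-06) and gave 0.03 ± 0.17 (adjusted p = 0.908) with AAV9-AIPL1wt. PARVB, a partner of the ILK complex, fell with AAV9-AIPL1wt, at -1.32 ± 0.18 (adjusted p = 7.39e-06) and gave -0.18 ± 0.17 (adjusted p = 0.413) with AAV9-AIPL1co. FERMT1, an integrin activator of epithelia, fell from a mean of 34.3 normalized counts in the control to 1.62 with AAV9-AIPL1wt (adjusted p = 2.42e-06) and 10.1 with AAV9-AIPL1co (adjusted p = 0.000740).

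Of 9 tested genes of integrin inhibition and traffic, AAV9-AIPL1co gave 1 higher and 1 lower (11.1% each, against 22.4 and 24.5% of all genes), and AAV9-AIPL1wt 2 (22.2%, against 26.4%) and 1 (11.1%, against 30.0%). With AAV9-AIPL1wt the recycling GTPase ARF6 rose by 0.63 ± 0.10 (adjusted p = 5.92e-05) and the integrin tail binder DOK1 by 0.44 ± 0.14 (adjusted p = 0.0108), while SNX17, which returns ITGB1 from endosomes to the surface, fell, at -0.55 ± 0.12 (adjusted p = 0.000791). NUMB, an endocytic adaptor, differed between the AIPL1 vectors, with AAV9-AIPL1co lower, at -0.46 ± 0.14 (adjusted p = 0.0154). Of 8 hemidesmosome and tetraspanin genes, AAV9-AIPL1wt gave 5 higher (62.5%, against 26.4% of all genes) and 2 lower (25.0%, against 30.0%), and AAV9-AIPL1co 2 and 2 (25.0% each, near the 22.4 and 24.5% of all genes). COL17A1, the hemidesmosome collagen, rose with AAV9-AIPL1wt by 1.76 ± 0.28 (adjusted p = 3.98e-05) and gave 0.41 ± 0.30 (adjusted p = 0.274) with AAV9-AIPL1co. PLEC, the linker of hemidesmosomes to keratin, rose by 0.40 ± 0.12 (adjusted p = 0.00707) with AAV9-AIPL1wt and fell, at -0.53 ± 0.11 (adjusted p = 0.00106) with AAV9-AIPL1co. The tetraspanins CD63 and CD9 rose with both AIPL1 vectors. The rises were 0.83 ± 0.12 (adjusted p = 1.77e-05) and 0.90 ± 0.12 (adjusted p = 1.47e-05) with AAV9-AIPL1co. With AAV9-AIPL1wt they were 0.70 ± 0.11 (adjusted p = 4.94e-05) and 0.64 ± 0.12 (adjusted p = 0.000245).

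Of 10 further laminin-binding receptors, AAV9-AIPL1wt gave 4 higher (40%, against 26.4% of all genes) and 3 lower (30.0%, as over all genes), and AAV9-AIPL1co 1 (10%, against 22.4%) and 3 (30.0%, against 24.5%). BCAM, a receptor of LAMA5 chains, rose by 0.95 ± 0.15 (adjusted p = 4.83e-05) with AAV9-AIPL1wt and by 0.66 ± 0.15 (adjusted p = 0.00179) with AAV9-AIPL1co. The syndecans, heparan sulfate receptors, went apart: SDC1 at -1.57 ± 0.18 (adjusted p = 1.18e-06) and SDC3 at -1.85 ± 0.19 (adjusted p = 4.63e-07) fell with AAV9-AIPL1wt, while SDC4 rose by 0.37 ± 0.11 (adjusted p = 0.0103). With AAV9-AIPL1co SDC3 fell as well, at -1.05 ± 0.19 (adjusted p = 0.000182). SDC1 and SDC4 gave -0.18 ± 0.17 and -0.23 ± 0.11 there (adjusted p = 0.415 and 0.103). Among 14 basement membrane partners of laminin, AAV9-AIPL1wt gave 9 higher (64.3%, against 26.4% of all genes) and 2 lower (14.3%, against 30.0%), and AAV9-AIPL1co 4 (28.6%, against 22.4%) and 3 (21.4%, against 24.5%). Set against AAV9-GFP instead, AAV9-AIPL1wt gave 5 higher (35.7%, against 25.6% of all genes) and 4 lower (28.6%, against 25.5%). NID2, which ties laminin to collagen IV, rose with AAV9-AIPL1co by 1.31 ± 0.15 (adjusted p = 2.37e-06) and with AAV9-AIPL1wt by 0.63 ± 0.15 (adjusted p = 0.00182). HSPG2, the proteoglycan perlecan, fell, at -1.18 ± 0.10 (adjusted p = 1.09e-07) and -1.63 ± 0.10 (adjusted p = 2.39e-09), respectively. TINAGL1, a laminin-binding matrix protein, rose with AAV9-AIPL1wt by 0.74 ± 0.26 (adjusted p = 0.0208), and COL15A1, a basement membrane zone collagen, went from a mean of 1.30 normalized counts in the control to 18.8 with AAV9-AIPL1wt (adjusted p = 0.000736). With AAV9-AIPL1co the mean of COL15A1 was 9.82 (adjusted p = 0.0219). Its AAV9-GFP mean was 1.30 too, so it had passed the filter only through the AIPL1 vector groups, in which it is high.

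Of 21 tested integrin ligands other than laminin, AAV9-AIPL1co gave 4 higher (19.0%, against 22.4% of all genes) and 9 lower (42.9%, against 24.5%), and AAV9-AIPL1wt 8 (38.1%, against 26.4%) and 6 (28.6%, near the 30.0% of all genes). CCN2, a matricellular ligand, rose with AAV9-AIPL1wt by 1.13 ± 0.15 (adjusted p = 4.83e-06) and fell with AAV9-AIPL1co, at -1.50 ± 0.15 (adjusted p = 4.42e-07), so that the vectors differed by -2.62 ± 0.14 (adjusted p = 5.00e-10). THBS1, thrombospondin, fell with AAV9-AIPL1co, at -2.12 ± 0.24 (adjusted p = 2.32e-06) and gave -0.16 ± 0.23 (adjusted p = 0.585) with AAV9-AIPL1wt. COL1A1, a chain of fibrillar collagen, rose with both, by 2.31 ± 0.26 (adjusted p = 1.70e-06) and 1.97 ± 0.26 (adjusted p = 5.68e-06). TNXB, a tenascin, rose from a mean of 3.95 normalized counts in the control to 20.8 with AAV9-AIPL1wt (adjusted p = 0.000319) and 10.5 with AAV9-AIPL1co (adjusted p = 0.0454). Its means in the control and with AAV9-GFP (5.10) were under the 10 counts of the filter. It thus owed its test to the AIPL1 vector groups, in which it is high.

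Markers of other cells were low and moved in part with the groups. The 3 leukocyte markers tested were lower with AAV9-AIPL1wt, where 30.0% of all genes were, LCP1 at -1.18 ± 0.32 (adjusted p = 0.00426), CORO1A at -1.79 ± 0.57 (adjusted p = 0.0120) and CSF1R at -0.99 ± 0.31 (adjusted p = 0.0105). With AAV9-AIPL1co LCP1 gave -1.59 ± 0.33 (adjusted p = 0.000696), CORO1A -1.73 ± 0.55 (adjusted p = 0.0156) and CSF1R -0.08 ± 0.27 (adjusted p = 0.834). CORO1A could pass the filter only through the control and AAV9-GFP (means of 10.3 and 9.75), in which it is high. Of 4 tested photoreceptor and neuronal markers, TUBB3, a neuronal tubulin, fell, at -1.65 ± 0.27 (adjusted p = 8.76e-05) with AAV9-AIPL1co and at -1.45 ± 0.27 (adjusted p = 0.000177) with AAV9-AIPL1wt, MAP2, a dendrite protein, fell, at -0.65 ± 0.22 (adjusted p = 0.0175) with AAV9-AIPL1wt, PDE6B of rods gave -0.44 ± 0.25 (adjusted p = 0.153), and the summed level of the 12 was 3.88 to 9.28 (16.4 in control replicate 1). Among epithelial markers, the phagocytosis receptor MERTK rose from a mean of 5.36 to 19.4 normalized counts with AAV9-AIPL1co (adjusted p = 0.00216) and the retinoid carrier RLBP1 by 1.21 ± 0.33 (adjusted p = 0.00576). The mean of MERTK was under the 10 counts of the filter in every group but AAV9-AIPL1co. No endothelial marker (7, summed level 0.131 to 0.417) and no platelet marker (6, 0.222 to 0.727, with PF4 and PPBP at 0) passed the filter, and the 1 fibroblast marker tested was not called (6 markers, 4.09 to 7.47, with LUM and DPT at 0). The part of these markers in the members' changes was not tested.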

How the data were processed

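Poly(A)-selected RNA of 12 ARPE-19 cultures was sequenced in unstranded libraries (60-base reads), and the authors aligned the reads to GRCh38 with Gencode 43 and 4 vector sequences using STAR 2.7.10b and counted uniquely aligned reads over the union of each gene's exons with HTSeq 0.11.1. The deposited values are raw gene counts per library, not normalized and not pooled, and the counts STAR itself gave per library were the same in every feature and were not used further. The labels gave the groups.

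In R 4.3.3, edgeR 4.0.16 kept genes by filterByExpr (a CPM of 1.25, or 10 counts, in the smallest group), applied TMM scaling and fitted 11 libraries by the quasi-likelihood method with the group as the only term (control replicate 1 was left out, following the study's methods). The Benjamini-Hochberg adjustment covered all 13896 genes. SE is log2 fold change over root F. For normalized read counts, each count was divided by its library's effective size relative to the geometric mean of these sizes. SDs are over libraries, and exon lengths, GC content and positions are from Gencode 44. The spread between replicates, as the common biological coefficient of variation, was 0.101. Depth was 6322811 to 9075660 gene counts. On simulated data for AAV9-AIPL1wt against the control, with 13588 genes tested, 97 of 100 genes changed 4-fold and 76 of 100 changed 2-fold were found and 6 unchanged genes were called. For AAV9-AIPL1co against AAV9-AIPL1wt these numbers were 97, 84 and 16. Only these genes were changed, in AAV9-AIPL1wt alone, without shifts by GC content or file date. In the data 26.4% of genes were higher and 30.0% lower with AAV9-AIPL1wt than in the control, so the simulated rates may not carry over.

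Every tested member but 1, which is not reported here and enters the counts alone, is named, those called in any of 6 comparisons with the value in every library, and untested members by their highest count. For each list around them up to 4 genes with an adjusted p under 0.05 and the largest change are named. The members and lists were chosen with earlier results of these data known. Alternatives tried were adding control replicate 1, a file date term, both, the first date alone, a replicate block, GC offsets, the 2 together, relative log expression, upper quartile or library size scaling, no filter, 1 CPM in 3 libraries, DESeq2 1.42.0, limma 3.58.1 with voom, fits of only the groups compared, and leaving out each library in turn. Protein measurements of the study were not used here.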

Additional observations from a re-analysis of the deposited data

Results flagged for a closer look

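Control replicate 1 entered no test, and 5 of the 24 subunit genes tested were more than 2-fold higher in it than in the mean of control replicates 2 and 3, while none of the 24 was more than 2-fold lower. The same share over all genes was not counted, so whether the subunit genes stood out in this library was not tested. ITGB3, a vitronectin receptor subunit, had 537 normalized read counts there, 3.30 times the mean of the other controls. ITGA1, a collagen receptor subunit, had 507, 3.27 times that mean. ITGA4 had 268 (2.96 times), ITGB4 of the hemidesmosome 422 (2.45 times) and ITGA2 57.3 (2.14 times). For ITGB3, ITGA1, ITGA4 and ITGB4 this library was the highest of the 12. In the other direction ITGA6 was lowest there, at 488 normalized read counts and 0.519 times the mean of the other controls.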

How the results depend on the processing

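Of 62 called results over the members, 26 were kept in every alternative run and 1 changed sign: ITGB3 in AAV9-AIPL1co against the control was -0.02 with all 12 libraries and a file date term. The date term kept 58 of 62 calls, all 12 libraries 35 and both 34, GC offsets 52, library size scaling 58, relative log expression 60, upper quartile scaling and voom all 62, DESeq2 55 and fits of only the groups compared 58. Against the control, AAV9-AIPL1co gave 2 members higher with all 12 libraries, with or without the date term. AAV9-GFP gave 0 higher with all 12 libraries, the date term, GC offsets or the block with GC offsets and 4 with only those groups, and 0 lower with GC offsets, with or without the block, and 6 with only those groups. Against AAV9-GFP, AAV9-AIPL1co gave 1 higher with all 12 libraries, 0 with the date term added and 7 with only those groups, and 5 lower with GC offsets, with or without the block. AAV9-AIPL1wt gave 7 higher within the first date, and 2 lower there and with all 12 libraries, with or without the date term. Between AIPL1 vectors, 2 were higher with AAV9-AIPL1co with all 12 libraries, with or without the date term, and 4 lower there and within the first date, and 5 with library size scaling. With library size scaling the median of all genes in AAV9-AIPL1wt against the control was -0.12, beside -0.04. With GC offsets 43.2% of all calls between AIPL1 vectors were higher with AAV9-AIPL1co, beside 53.6%. The cause of these shifts was not tested.

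Leaving out 1 library in turn gave 4 to 8 members higher and 3 to 6 lower with AAV9-AIPL1co against the control, 7 to 12 and 3 to 4 with AAV9-AIPL1wt, and 0 to 1 and 0 to 3 with AAV9-GFP. Against AAV9-GFP it gave 3 to 7 and 2 to 4 with AAV9-AIPL1co and 9 to 13 and 2 to 4 with AAV9-AIPL1wt. Between AIPL1 vectors it gave 2 to 4 and 2 to 11. A lone control library is then taken to vary like the other groups. Counts moved over 1.5 times between AIPL1 vectors without AAV9-AIPL1wt replicate 2 (2 lower), AAV9-AIPL1co replicate 1 (2 higher, 5 lower) or AAV9-AIPL1co replicate 3 (5 lower), in AAV9-AIPL1co against AAV9-GFP without AAV9-AIPL1wt replicate 2 (7 higher), and in AAV9-AIPL1wt against AAV9-GFP without AAV9-GFP replicate 2 (2 lower). They also moved in AAV9-AIPL1co against the control without AAV9-AIPL1co replicate 1 or either control (3 lower), and in AAV9-GFP against the control without AAV9-GFP replicate 1 or 2 or control replicate 3 (0 higher and 0 lower) or control replicate 2 (0 lower). Replicate numbers were not taken to pair the samples in the main fit. Of 15 pairs of libraries with the same number, 4 had deviations correlated above 0.1 (range -0.063 to 0.236), beside 3 of 30 pairs with different numbers (-0.255 to 0.202). The 3 pairs among the replicate 1 libraries were among these 4. These values do not show that the replicate numbers are unrelated between groups. The replicate block kept 60 of 62 calls, with ITGB4 in AAV9-AIPL1co at -0.42, adjusted p = 0.0657 and ITGA6 in AAV9-AIPL1wt at -0.32, adjusted p = 0.0706 against the control. At this depth members with under about 10 counts were not testable.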
